A study of Mus musculus with 6 samples.

Results

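The 10 genes described here carry out de novo fatty acid synthesis, the making of new fatty acids from acetyl-CoA in the cytosol. They were taken from the deposited expression table by gene name, namely Acly, Acaca, Acacb, Fasn, Olah, Me1, Slc25a1, Thrsp, Mid1ip1 and Acss2, and all 10 were found among its 21950 genes. All 10 reached a mean of 2 RPKM in at least 1 genotype, as did 13118 genes in all. RPKM is the number of reads over a gene, scaled to its exonic length and to the reads of the library. RNA came from mammary tissue slides of FVB/NJ mice at lactation day 2 and postnatal week 11, either wildtype or MMTV-FOXC1 transgenic, with 3 samples labelled for each genotype. The transgenic mice carry a Myc-tagged human FOXC1 cDNA under the mouse mammary tumor virus promoter, which is driven by hormones of pregnancy and lactation and is active in the luminal epithelium, and which transgenic line was sequenced is not given in the sources used here. The samples compared share strain, age and day of lactation, and the question was how expression in the gland differs with the transgene. The paper reports that pups of transgenic females died with no milk in the stomach. It also reports that transgenic glands lacked well-defined alveoli at lactation, so the genotypes share the day after birth and not the state of the gland.

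In the lactating gland, secretory cells turn glucose into milk fat. Citrate leaves the mitochondrion through the citrate carrier Slc25a1 and is split by ATP citrate lyase, Acly, into acetyl-CoA. Acetyl-CoA carboxylase, Acaca, makes malonyl-CoA, which fatty acid synthase, Fasn, joins into a growing chain with NADPH that comes in part from the malic enzyme Me1. In most tissues the chain is released as palmitate, while in the rodent mammary gland the thioesterase Olah releases it early, which gives the medium-chain fatty acids of milk. Acss2 makes acetyl-CoA from acetate, Acacb is the carboxylase of the mitochondrial surface whose product restrains fatty acid oxidation, and Thrsp (Spot 14) and Mid1ip1 are a pair of related small proteins, of which Mid1ip1 promotes the assembly of the carboxylase into active filaments. The same pathway runs in adipocytes, which surround the mammary epithelium.

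Of the 10 genes, 9 were lower in transgenic than in wildtype mice and 5 of them were lower by more than the size threshold, an absolute log2 change over 2. These were Olah, Acly, Thrsp, Acaca and Slc25a1. Over all 13118 genes, 1.23% were lower and 16.1% higher past this threshold (17.3% either way), and 12.3% had any negative change. The summed level of the 10 genes was 3126 RPKM in wildtype against 652 RPKM, 4.79 times lower, in transgenic mice. Together they took 1.79% of the wildtype reads to which RPKM was scaled (95% Wilson interval 1.79% to 1.80%). In transgenic mice this share was 0.469% (0.467% to 0.471%). Mid1ip1 alone had a positive change, which became negative with other scalings.

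How far these values can be read is set by the libraries. The RPKM of a gene moves in steps of a single read, from which depth and reads were worked back. The depth was 3492861 to 3496335 reads in the wildtype columns and 11770867 to 11775866 reads in the transgenic columns. Reads on genes of the deposited table made up 99.9% of this depth in wildtype and 99.7% in transgenic columns. Shares of reads are thus shares of this total, which need not be all reads sequenced. The columns of a genotype differed by about the sampling noise, with a chi-square per degree of freedom of 1.02 over 5835 wildtype genes and 1.05 over 7490 transgenic genes. Over the 10 synthesis genes it was 0.630 and 1.32. The 3 columns were therefore counted as 1 library for each genotype (n = 1), differences have no replicate check, no p-value is given, and intervals cover counting error only. Of the wildtype reads, 42.7% lay on 9 milk protein genes, against 0.234% of the transgenic reads. The median log2 change of all genes was 1.06 with the deposited library-size scaling and 0.40 when scaled to reads outside the milk list. Median-of-ratios size factors lowered transgenic against wildtype values by 1.24 on the log2 scale and brought this median to 0.036. A change given after this step is named a relative change. In a bulk sample, fewer cells of a type and less RNA per cell cannot be told apart. The mouse gene Foxc1 had 1.66 to 2.90 RPKM in wildtype and 8.21 to 9.56 RPKM in transgenic columns, which gives a log2 change of 1.58 and a relative change of 0.58. It is no clean check of the transgene, a human cDNA of which only some reads would align to the mouse gene.

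**Figure D1:**
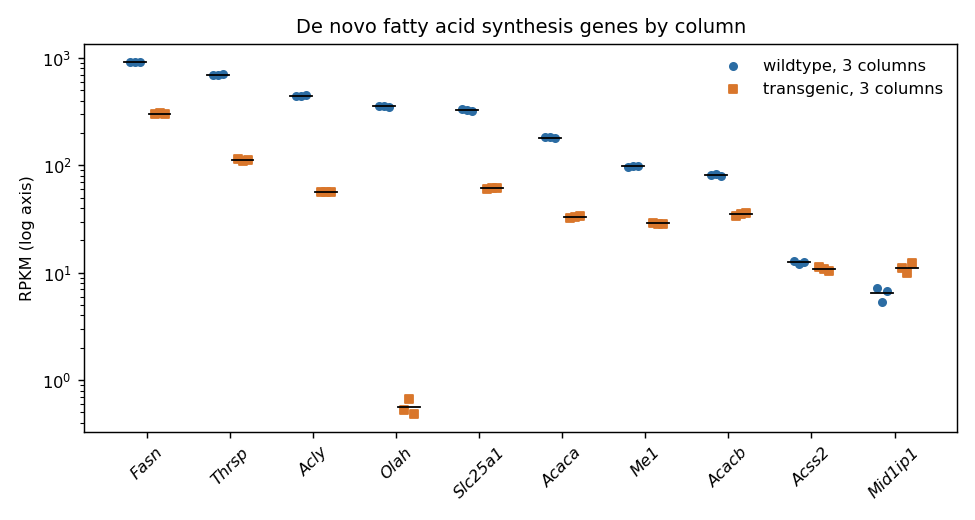
RPKM (log axis) of the 10 genes in each of the 3 wildtype columns (circles) and 3 transgenic columns (squares), with a bar at the mean. The columns of a genotype lie close together, Olah stands at 357 and 0.560 RPKM, and Mid1ip1 and Acss2 are the genes whose genotypes lie closest.

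Promoter sequences of 4 genes are shown because they stand at the ends and in the middle of the response, Olah with the largest decrease, Mid1ip1 with no decrease at library size, and Fasn and Slc25a1 as enzyme and carrier of the main route. Each is the window of 250 bases before to 50 bases after the transcription start in RefSeq (GRCm38.p6), written 5′ to 3′ on the strand of the gene, at chr2:3366520-3366819 (minus strand), chr11:120824498-120824797 (minus), chr16:17928170-17928469 (minus) and chrX:10717115-10717414 (plus). Capitals mark matches on either strand to the motifs listed after the sequences.
Olah: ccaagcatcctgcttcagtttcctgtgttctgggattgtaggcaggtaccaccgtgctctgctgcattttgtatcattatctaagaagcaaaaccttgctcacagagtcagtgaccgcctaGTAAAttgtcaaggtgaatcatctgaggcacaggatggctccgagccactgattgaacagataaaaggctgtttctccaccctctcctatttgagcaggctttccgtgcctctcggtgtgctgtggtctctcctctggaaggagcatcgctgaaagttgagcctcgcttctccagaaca
Fasn: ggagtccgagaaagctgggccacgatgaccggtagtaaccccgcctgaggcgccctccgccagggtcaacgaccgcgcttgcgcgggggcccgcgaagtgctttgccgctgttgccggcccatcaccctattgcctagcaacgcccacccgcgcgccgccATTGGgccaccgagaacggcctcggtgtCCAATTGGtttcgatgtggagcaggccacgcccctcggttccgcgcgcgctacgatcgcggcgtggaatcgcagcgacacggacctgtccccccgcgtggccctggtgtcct
Slc25a1: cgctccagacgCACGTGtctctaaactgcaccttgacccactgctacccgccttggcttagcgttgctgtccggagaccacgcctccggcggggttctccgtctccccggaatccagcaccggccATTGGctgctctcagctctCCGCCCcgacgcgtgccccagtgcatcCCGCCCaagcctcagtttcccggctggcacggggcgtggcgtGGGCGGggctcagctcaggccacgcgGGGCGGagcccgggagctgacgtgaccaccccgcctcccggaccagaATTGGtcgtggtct
Mid1ip1: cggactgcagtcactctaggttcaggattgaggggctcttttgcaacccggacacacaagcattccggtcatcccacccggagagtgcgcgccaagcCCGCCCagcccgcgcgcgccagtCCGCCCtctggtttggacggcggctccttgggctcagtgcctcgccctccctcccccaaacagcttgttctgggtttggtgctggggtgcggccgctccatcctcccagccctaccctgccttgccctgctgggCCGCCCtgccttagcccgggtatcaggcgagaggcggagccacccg
The motifs searched were the sterol regulatory element TCACNCCAC, the E-box CACGTG, the STAT5 palindrome TTCNNNGAA, the forkhead core GTAAA, the CCAAT box CCAAT and the GC box GGGCGG, with N for any base.

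All 10 genes matched the RefSeq table, with 11 windows in all, since Me1 has a pair of starts. Of the 10 windows at the first start listed, 6 held a CCAAT box (Acly, Acacb, Fasn, Slc25a1, Thrsp and Acss2), against 37.4% of all 32851 promoters in the table. Fasn had 3 matches, of which the pair between positions -62 and -55 from the start overlap in a single palindromic run. GC boxes were in 5 windows (Acly, Me1, Slc25a1, Mid1ip1 and Acss2) against 35.7% of promoters. The E-box was found in Slc25a1 only, at positions -239 to -234, against 7.15% of promoters. The forkhead core stood in Olah, at positions -129 to -125 with the start base as 0, and in Acaca, against 31.5% of promoters. None of the 11 windows held the sterol regulatory element (1.24% of promoters) or the STAT5 palindrome (8.30%) in these letters. The window of Olah, whose decrease was the largest, held neither a CCAAT box nor a GC box. The CCAAT box stood in 3 of the 5 genes past the threshold and in 3 of the other 5. Acaca has several annotated starts, and its window covers only 1 of them. The windows of Olah, Acacb and Mid1ip1 also lie wholly inside the gene bounds given below, downstream of the outermost 5′ end. They may thus miss other starts of these genes, and which start was used in these samples was not tested.

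Olah had the largest decrease of the pathway. Its RPKM was 360, 360 and 352 in the 3 wildtype columns and 0.528, 0.672 and 0.480 in the transgenic columns, from 6628 and 35 reads. The genotypes were far apart in every column. By level in wildtype mice, Olah ranked 46th of the 13118 genes that reached 2 RPKM in either genotype. Its rank of 13057 among them in transgenic mice follows from this filter. A gene below 2 RPKM there is kept only for its wildtype level. The log2 change was -7.84, the 5th lowest of all genes, and the relative change was -8.65. A low level makes the log2 change depend on the 1 RPKM added, and it was -9.08 with a pseudocount of 0.1 and -6.03 with 5. Without a pseudocount the ratio of its RPKM was 638 in favour of wildtype mice, with a counting interval of 458 to 917 that is wide because so few transgenic reads were left. The gene (ENSMUSG00000026645) is at 3341982 to 3397210 of chromosome 2 (GRCm38), with no exonic overlap with other genes.

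Fasn, which builds the chain that Olah releases, was the most abundant of the 10 genes in both genotypes. It had 915, 925 and 917 RPKM in wildtype and 301, 305 and 303 RPKM in transgenic columns. This is a 3.03-fold lower level, with a log2 ratio of reads between -1.61 and -1.59 from counting error, a log2 change of -1.60 and a relative change of -2.83, so that Fasn passed the threshold on the relative scale only. Fasn ranked 27th of all genes in wildtype and 59th in transgenic mice, and its share of the summed RPKM of the 10 genes was 29.4% in wildtype and 46.5% in transgenic mice. The gene (ENSMUSG00000025153) lies on chromosome 11 from 120805846 to 120824547. Set against Fasn within the same library, Olah stood at 0.389 RPKM per RPKM of Fasn in wildtype (0.379 to 0.399) and 0.00185 in transgenic mice (0.00129 to 0.00257), a 211-fold shift that no scaling between libraries alters.

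The genes that supply cytosolic acetyl-CoA from citrate were lower past the threshold on both scales. Acly had 443, 442 and 450 RPKM in wildtype and 56.0, 56.7 and 56.4 RPKM in transgenic columns. Its level was 7.89-fold lower (7.71 to 8.07), the largest difference after Olah, at log2 changes of -2.96 (library size) and -4.18 (relative). Slc25a1, the citrate carrier before it in the route, had 332, 325 and 324 RPKM in wildtype and 59.8, 61.6 and 61.7 RPKM in transgenic columns. Its log2 change was -2.40 and its relative change was -3.62, a 5.35-fold lower level (5.15 to 5.56). Slc25a1 stood below Acly in wildtype (0.734 of its RPKM, 0.714 to 0.754) and slightly above it in transgenic mice (1.08, 1.04 to 1.12), a pair chosen after the values were seen. Acly lies on chromosome 11 from 100476353 to 100528000 and Slc25a1 on chromosome 16 from 17925223 to 17928219, with no exonic bases shared with another gene.

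Acss2, which makes acetyl-CoA from acetate, did not follow Acly. Its RPKM was 12.8, 12.2 and 12.6 in wildtype and 11.3, 10.8 and 10.5 in transgenic columns. The log2 change of -0.19 and the relative change of -1.33 were both within the threshold, and the ratio of wildtype to transgenic RPKM was 1.16 (1.09 to 1.23). As a share of the RPKM of Acly, Acss2 stood at 0.0282 in wildtype (0.0267 to 0.0298) and 0.192 in transgenic mice (0.185 to 0.200), a 6.82-fold shift. With coding lengths these values were 0.0820 and 0.560. The level of Acss2 may be understated beside the others. The table scaled it to 10163 exonic bases, 3.47 times its longest coding transcript in the reference (2931 bases), and 9.12% of those bases are shared with other genes. The values with coding lengths keep all reads of the longer model, and where these reads fall was not examined. The difference between genotypes is not affected by the length.

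The carboxylases differed unequally between genotypes. Acaca, which makes malonyl-CoA for synthesis, had 182, 182 and 179 RPKM in wildtype and 32.4, 32.8 and 33.4 RPKM in transgenic columns. It was 5.51-fold lower (5.41 to 5.60), at a log2 change of -2.43 and a relative one of -3.64. Acacb, the carboxylase tied to control of fatty acid oxidation, had 81.1, 83.1 and 79.9 RPKM in wildtype and 34.1, 35.6 and 35.6 RPKM in transgenic columns. Its level was 2.32-fold lower (2.25 to 2.38), with a log2 change of -1.19, within the threshold, and a relative change of -2.40, past it. Acacb thus stood at 0.449 of the RPKM of Acaca in wildtype (0.439 to 0.460) and at 1.07 in transgenic mice (1.04 to 1.09). The length worked back for Acaca was 17046 exonic bases (17074 in the reference), 1.79 times its longest coding transcript. Acacb was scaled to 9632 bases, 1.10 times. The ratio itself thus depends on these models while its shift between genotypes does not. With coding lengths the ratio was 0.275 in wildtype and 0.653 in transgenic mice, below 1 in both. Acaca lies on chromosome 11 from 84129672 to 84401651 and Acacb on chromosome 5 from 114146535 to 114250761, with 0% of exonic bases shared for both.

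Me1, the cytosolic malic enzyme and a source of NADPH, had 96.0, 99.6 and 98.3 RPKM in wildtype and 29.3, 28.5 and 28.7 RPKM in transgenic columns. It was 3.40-fold lower (3.25 to 3.55), close to the difference of Fasn, at a log2 change of -1.73 and a relative one of -2.94, past the threshold on the relative scale only. Me1 lies on chromosome 9 from 86581371 to 86695953, with 0.780% of exonic bases in common with A330041J22Rik.

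Thrsp and Mid1ip1, the related small proteins, differed more from each other than any other pair apart from Olah and Fasn among the 4 pairs plotted. Thrsp had 699, 695 and 704 RPKM in wildtype, second only to Fasn, and 114, 111 and 112 RPKM in transgenic columns. It was 6.23-fold lower (6.02 to 6.45), at a log2 change of -2.63 and a relative one of -3.86. Mid1ip1 was low in both genotypes, with 7.26, 5.38 and 6.73 RPKM in wildtype and 11.0, 9.98 and 12.4 RPKM in transgenic columns, from 144 and 837 reads. All transgenic columns lay above the wildtype columns, by 1.72-fold on average (1.44 to 2.07), yet the log2 change of 0.70 lay below the median of all genes. With size factors the change was -0.40, and it was -1.19 with the luminal epithelium list set to 0. Thrsp stood at 108 times the RPKM of Mid1ip1 in wildtype (91.8 to 129) and at 10.1 times in transgenic mice (9.36 to 10.8). Of the exonic bases of Mid1ip1, 25.5% are shared with Gm14493 on the other strand, and the use of strand in counting is not given in the sources used here, so that reads of the pair cannot be told apart. Thrsp lies on chromosome 7 from 97412938 to 97417730 and Mid1ip1 on chromosome X from 10715013 to 10719690.

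**Figure D2:**
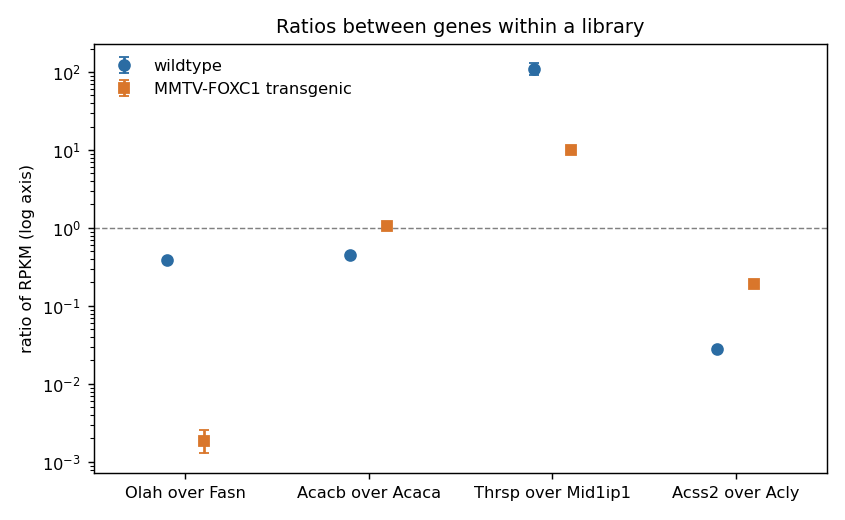
Ratio of RPKM (log axis) between pairs of genes within the wildtype library (circles) and the transgenic library (squares), with bars for the 95% counting interval. Olah over Fasn and Thrsp over Mid1ip1 are lower, and Acacb over Acaca and Acss2 over Acly higher, in the transgenic library.

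Ordered by level, the wildtype library ran Fasn, Thrsp, Acly, Olah, Slc25a1, Acaca, Me1, Acacb, Acss2 and Mid1ip1, and no neighbours in this order overlapped between columns. The transgenic library ran Fasn, Thrsp, Slc25a1, Acly, Acacb, Acaca, Me1, Mid1ip1, Acss2 and Olah. There Mid1ip1 (9.98 to 12.4 RPKM) and Acss2 (10.5 to 11.3 RPKM) overlapped. Both orders rest on the exonic lengths of the table. Rescaled to the longest coding transcript, a choice made after seeing the data, Slc25a1 (376) stood above Olah (358) in wildtype, and Acaca (58.9) above Acacb in transgenic mice. Acss2 (36.3 to 39.2) then overlapped Acacb (37.4 to 39.1) and stood above Me1 (33.4). In wildtype mice 8 of the 10 genes stood among the highest 192 of the 13118 genes, and in transgenic mice Fasn (rank 59), Thrsp (rank 223), Slc25a1 (rank 482) and Acly (rank 551) were the highest. For all 10 genes the columns of the genotypes did not overlap. Of all genes, 93.3% were apart in this way, as columns of a single library differ by little more than counting noise.

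**Figure D3:**
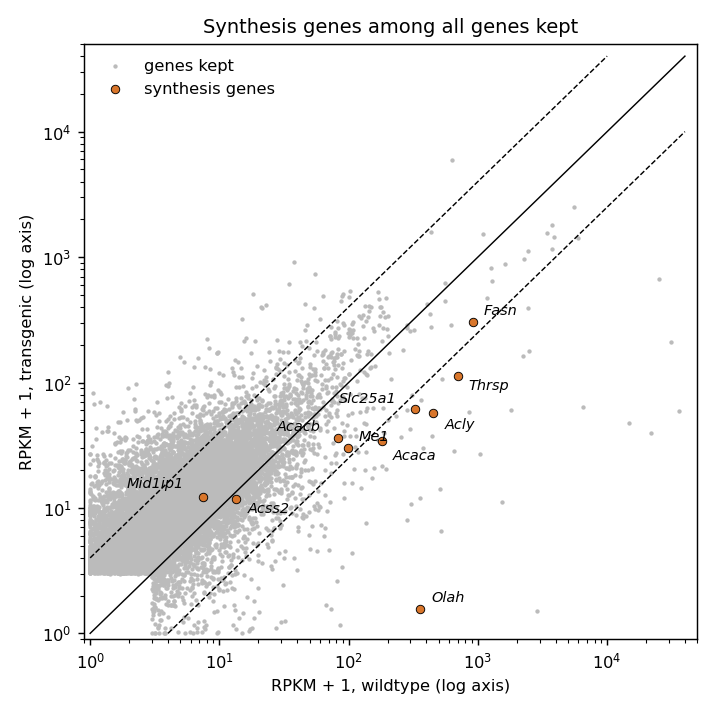
RPKM + 1 in wildtype (x, log axis) against transgenic mice (y, log axis) for the 13118 genes kept (grey) and the 10 synthesis genes (orange), with lines for equal values (solid) and log2 changes of -2 and 2 (dashed). Olah, Acly, Thrsp, Acaca and Slc25a1 lie below the lower dashed line, and Mid1ip1 lies above the solid line, with a change that is negative on the relative scale (-0.40).

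The size of the decrease depended on the scaling, and the order of the 10 genes was the same in the 3 scalings plotted. The median log2 change of the 10 genes was -2.07 at library size, beside 1.06 for all genes, and -3.28 on the relative scale, beside 0.036. Relative changes passed the threshold downward for 8 of the 10 genes, all except Acss2 and Mid1ip1, and for none upward, against 3.66% and 4.17% of all genes (7.83% either way). All 10 relative changes were negative, Mid1ip1 included, against 48.5% of all genes. Set to the luminal epithelium list, whose median was higher in transgenic mice, 9 genes were lower past the threshold, with Acss2 at -2.13 and Mid1ip1 within it.

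**Figure D4:**
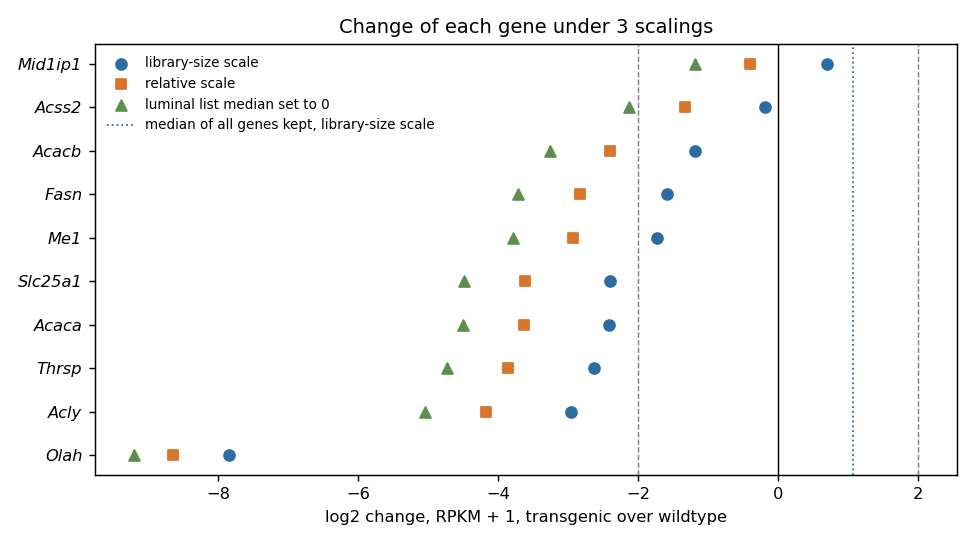
Log2 change of RPKM + 1 (x) for each gene (y) at library size (circles), with size factors (squares) and with the luminal epithelium list median set to 0 (triangles), with dashed lines at -2 and 2. At library size 5 genes lie left of -2, with size factors 8, and the dotted line marks the median of all genes at 1.06.

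Regulators of the pathway lay, as a list, near the median of all genes. The list held 15 genes of SREBP, ChREBP and LXR signalling, which drive transcription of lipogenic enzymes. Of these, 4 stood higher and 1 lower beyond the threshold, against 16.1% and 1.23% of all genes. On the relative scale 1 stood higher and 1 lower, against 4.17% and 3.66%. The list median was 0.94 and its relative median -0.24, beside 1.06 and 0.036 for all genes. Insig1, the SREBP target that holds SREBP in the endoplasmic reticulum, was the lower one, with 232 RPKM against 52.7 RPKM and a log2 change of -2.12. Srebf1, which encodes SREBP-1, had 55.0 and 47.6 RPKM, a log2 change of -0.21 and a relative change of -1.42, within the threshold on both scales. Mlxipl, which encodes ChREBP, was higher (3.27 and 21.1 RPKM, 2.37), as were the liver X receptor genes Nr1h3 (0.534 and 14.5 RPKM, 3.33) and Nr1h2 (2.05) and the E-box factor Usf1 (2.13). On the relative scale Nr1h3 alone remained higher past the threshold, at 2.52.

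The carboxylases are switched off by the kinase AMPK. A list of 12 genes held its subunits, carboxylase partners and other genes that are neither. Of the 10 that passed the RPKM minimum, 1 was lower and 0 were higher past the threshold on both scales. Of all genes, 1.23% were lower and 16.1% higher (3.66% and 4.17% on the relative scale). The list median was 1.20 and its relative median 0.18. The lower gene of the list was Prkaa2, a catalytic subunit of AMPK, with 56.2 RPKM against 3.50 RPKM and a log2 change of -3.67. The other catalytic subunit, Prkaa1, chosen for mention by its value, had 2.17 and 9.74 RPKM and a log2 change of 1.76, within the threshold.

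Of 11 genes of other NADPH sources, 2 stood higher and 0 lower beyond the threshold, near the shares of all genes (16.1% and 1.23%). On the relative scale these shares of all genes were 4.17% and 3.66%. The list median was 0.82 and its relative median -0.19, beside 1.06 and 0.036 for all genes. Me2, the mitochondrial malic enzyme, had 0.350 and 11.8 RPKM (9 and 1022 reads) and a log2 change of 3.24, and the cytosolic isocitrate dehydrogenase Idh1 had 3.77 and 25.2 RPKM and a log2 change of 2.45. On the relative scale Me2 was higher (2.50), while G6pdx (-2.01) and Pgd (-2.01) of the pentose phosphate route, which were chosen for mention by their values, were lower.

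Of 18 genes that bring pyruvate and citrate to the pathway, 1 stood higher and 0 lower beyond the threshold. Of all genes, 16.1% stood higher and 1.23% lower (4.17% and 3.66% on the relative scale). The list median was -0.28 and its relative median -1.48. Pdk4, the kinase that shuts pyruvate dehydrogenase, had 6.44 and 37.4 RPKM and a log2 change of 2.37. On the relative scale 4 were lower and none higher, namely the pyruvate carrier subunits Mpc1 and Mpc2, the dehydrogenase subunit Pdhb and the transaminase Got1, all chosen for mention by their values. Of 8 measured genes of other acyl-CoA synthetases, malonyl-CoA and biotin handling, 3 were higher and 0 lower (0 and 1 on the relative scale). The same shares of all genes stand beside these counts. Past the threshold at library size were Btd (2.42), which recycles biotin, Mlycd (2.20), which breaks malonyl-CoA down, and Acss3 (2.18). On the relative scale all of them were within it. The gene lower on that scale was Acss1, chosen for mention by its value, with 33.7 and 16.7 RPKM and a relative change of -2.15. Acss3 has 33.9% of its exonic bases in common with other genes.

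Desaturation and elongation of the finished chain stood closest to de novo synthesis among the lists. Of 11 measured genes, 4 were lower and 1 higher past the threshold, against 1.23% and 16.1% of all genes. On the relative scale 7 were lower and 1 higher, against 3.66% and 4.17%. The median was -1.68 and the relative median -2.85. Those lower at library size were Fads1 (-3.62), Elovl5 (-3.07), Fads2 (-2.28) and Scd2 (-2.02). Elovl3, an elongase of brown fat and skin, was higher, from 0 wildtype reads to 176 transgenic reads. Scd1, the main desaturase for palmitate and stearate, had 3736 and 1161 RPKM and a log2 change of -1.68, near that of Fasn. Fatty acid synthesis inside the mitochondrion, a separate enzyme set that serves lipoate, had 0 of 6 measured genes past the threshold on either scale. Of all genes, 17.3% at library size and 7.83% on the relative scale were past it. The median of this list was 0.41 and its relative median -0.64, beside 1.06 and 0.036 for all genes.

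**Figure D5:**
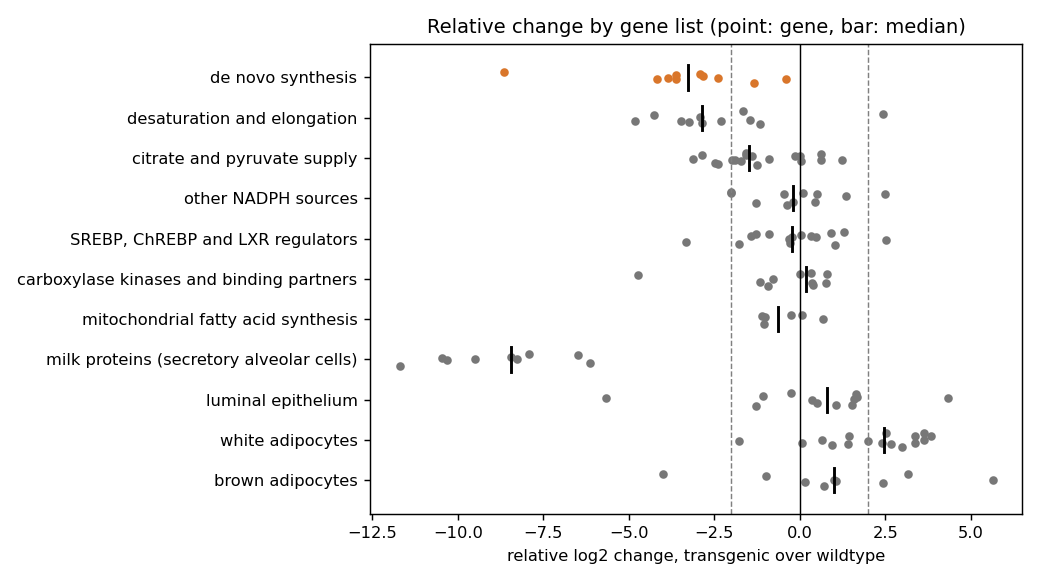
Relative log2 change (x) of each measured gene (points) by list (y), with a bar at the list median and dashed lines at -2 and 2. De novo synthesis and desaturation and elongation lie mostly to the left of 0, with medians of -3.28 and -2.85, white adipocyte markers mostly to the right, and milk proteins farthest to the left.

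Markers of several cell types differed between the genotypes, and their part in the values of the synthesis genes was not tested. Of 9 milk protein genes, all 9 were lower past the threshold on both scales, and their summed level was 141515 to 142066 RPKM in wildtype and 1143 to 1157 RPKM in transgenic columns. Csn1s2b (-10.91), Wap (-9.24), Csn1s2a (-9.11) and Csn1s1 (-8.28) had the largest changes. Olah lay in the range of these milk genes and the other 9 synthesis genes did not reach it, since the smallest change of the milk list was -4.91, for Lalba. The luminal epithelium list had 12 markers, of which 6 stood higher and 1 lower (1 and 1 on the relative scale). Beside the counts of both lists, 16.1% of all genes stood higher and 1.23% lower (4.17% and 3.66% on the relative scale). The luminal median was 1.86 and its relative median 0.78. Among those higher were the keratins Krt8 (13.9 and 109 RPKM) and Krt18 (18.5 and 134 RPKM), with relative changes of 1.69 and 1.59, within the threshold. Cldn4 stood at 2 wildtype and 2194 transgenic reads, and the apical mucin Muc1 was lower (-4.59). Epcam (0.94), Cldn7 (0.06) and Ehf (-0.08), chosen for mention by their values, lay below the median of all genes (1.06). The sum of the luminal list was 236 to 246 RPKM in wildtype and 512 to 515 RPKM in transgenic columns, and no marker was at 0.

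Adipocytes express most of the synthesis genes themselves, and most white adipocyte markers were higher. Of 16 white adipocyte markers, 13 stood higher and 0 lower beyond the threshold (9 and 0 on the relative scale). Beside these counts and those of the brown list, 16.1% of all genes stood higher and 1.23% lower (4.17% and 3.66% on the relative scale). The sum of the white list was 490 to 504 RPKM in wildtype and 3484 to 3509 RPKM in transgenic columns. The largest changes were those of the lipid droplet proteins Plin1 (4.92) and Plin4 (4.80), of Pck1 (4.77) and of the adipokine Cfd (4.60). None of the markers was at 0 in wildtype mice. Lpl, chosen for mention by its value, had the highest wildtype level of the list and was lower in transgenic mice (262 and 179 RPKM). Its log2 change was -0.55 and its relative change was -1.78, both within the threshold. Of 9 measured brown adipocyte markers, 3 were higher and 1 lower on both scales, namely Ucp1 (1 wildtype and 4760 transgenic reads), Cox8b (4.22) and Elovl3 higher and Cidea, which also acts in milk lipid secretion, lower (-2.80). The sum of the brown list was 305 to 311 RPKM in wildtype columns, nearly all of it Cidea (297.5 RPKM), and 214 to 217 RPKM in transgenic columns. How much of the RNA of each synthesis gene came from adipocytes or from epithelium in either genotype was not tested.

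Markers of immune, stromal and endothelial cells were counted in the same way. Higher past the threshold were 7 of 8 B cell, 8 of 10 T cell, 5 of 8 macrophage, 6 of 8 fibroblast and 2 of 8 endothelial markers, with 0 lower in any of these lists. On the relative scale the counts were 6, 7, 1, 5 and 0, beside 16.1% and 4.17% of all genes higher on these scales. Their summed levels in wildtype and transgenic mice were 7.62 and 204 RPKM for B cells, 13.3 and 276 RPKM for T cells, 16.2 and 109 RPKM for macrophages, 69.6 and 1186 RPKM for fibroblasts and 48.3 and 180 RPKM for endothelium. Hepatocyte markers, a lipogenic cell type outside the gland, had sums of 0.337 and 4.06 RPKM, and Serpina1a (1 and 237 reads) was higher past the threshold at library size only. Of 5 skeletal muscle markers, 2 reached the RPKM minimum, with a list sum of 72.3 RPKM in wildtype against 21.5 RPKM. Nearly all of it was the actin gene Acta1 (71.7 and 17.96 RPKM), whose log2 change was -1.94 at library size and -3.13, past the threshold, on the relative scale. Ckm, Myh4 and Tnnt3 were at 0 reads in wildtype mice. The B cell marker Fcmr was at 0 reads in wildtype mice, and Apoa1 and Ttr of hepatocytes were at 0 in both genotypes.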

How the data were processed

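RNA extracted from slides of wildtype and transgenic mammary tissue was depleted of ribosomal RNA and sequenced as single reads. The authors aligned reads to GRCm38 with TopHat2 (2.0.7, also in the submitters' processing notes) and deposited RPKM estimated with SAMMate and Ensembl gene models. The deposited table also holds the authors' mean RPKM, a log2 fold change and a linear fold ratio, which were not used.

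Depth and reads were recovered from the RPKM steps, within 1e-05 reads, for all 18308 genes with reads. For 8699 of them the exonic length of the GENCODE M21 annotation (GRCm38) gave whole reads. For the other 9609 the smallest length that made all columns whole was taken, so their lengths and reads are inferred. Acaca, Fasn, Me1, Slc25a1 and Thrsp were among these. Recovery was tested on simulated data. The 3 columns of a genotype were averaged as 1 library. Changes are log2 of mean RPKM + 1, transgenic over wildtype, and a gene with at least 2 RPKM in either genotype was called at an absolute log2 change over 2, by size alone. The 2 RPKM minimum and the number 2 follow the study's methods, which put the latter on fold changes of a count test with a false discovery limit and on protein-coding genes, so the calls here are not the same rule. A linear model on log2(RPKM + 1), planned for separate samples, was not run because the columns behaved as a single library. For the relative scale, median-of-ratios size factors were taken from 12677 genes that had reads in all columns. Ratios carry Clopper-Pearson intervals (95%) and shares Wilson intervals. Python (3.11.15), numpy (2.4.6), pandas (2.3.3) and scipy (1.17.1) were used.

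The genes and lists were chosen with earlier results of these data known. The text names all 10 synthesis genes, Srebf1, Mlxipl, Insig1, Scd1, Foxc1 and up to 4 genes with the largest change past the threshold from each list, and says where another gene is named. Lists were matched by symbol or gene ID, and Hsd17b8 was not analysed here. Alternatives were other scalings, pseudocounts, RPKM minimums and leaving out each column.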

Additional observations from a re-analysis of the deposited data

How the results depend on the processing

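At library size 5 of the 10 genes were lower past the threshold, with a median log2 change of -2.07. Size factors gave 8 and -3.28, a trimmed mean of ratios 8 and -3.25, reads without the milk protein list 7 and -2.85, and the luminal epithelium list set to 0 gave 9 and -4.15. A pseudocount of 5 gave a median of -1.95. The number higher past the threshold was 0 in each of these. Of the single genes, Mid1ip1 changed sign under all 4 scalings, and Fasn and Me1 passed the threshold under all 4, Acacb under 3 and Acss2 under 1. A pseudocount of 0.1 or 5, an RPKM minimum of 5 or none, and leaving out any 1 of the 6 columns changed no sign and no side of the threshold. Leaving out a column moved Mid1ip1 most (0.60 to 0.78). The change of Olah was -9.08 and -6.03 with these pseudocounts. Coding lengths, added after seeing the data, moved Acacb over Acaca and Acss2 over Acly, while Olah over Fasn and Thrsp over Mid1ip1 stayed within their counting intervals. No paired analysis was possible because the columns of a genotype behaved as 1 library and no test was run. Depth limits the transgenic level of Olah (35 reads) and both levels of Mid1ip1.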
